A study of Homo sapiens with 3 samples.

Results

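The mitochondrially encoded genes were described in 3 RNA-seq libraries as all rows of the deposited gene tables that lie on chrM, the mitochondrial chromosome. The rule found 26 rows of the 43389 that the 3 tables share, namely 2 mRNA rows, 2 rRNA rows and 22 tRNA rows. The libraries are labelled as replicates 1 to 3 of wild-type HepG2, a widely used line from a human liver tumour, with polyA RNA as the molecule, and they form 1 condition. Of 16 listed genes for proteins that hepatocytes secrete, 10 were listed at 0 in all 3 libraries and 14 were below 1 TPM in all 3, the exceptions being RBP4 and VTN. Of all 43389 rows, 46.1% were listed at 0 and 67.2% were below 1 TPM in all 3 libraries, so the counts alone do not set the list apart. ALB, APOA1 and SERPINA1, which are defining products of hepatocytes, were among the genes at 0, and the text speaks of libraries labelled HepG2. AFP had a mean of 0.0162 TPM. The epithelial markers listed had means of 2610 TPM for KRT8, 2017 for KRT18, 1.02 for CDH1 and 0.0300 for EPCAM. The mesenchymal markers listed had means of 694 TPM for VIM, 27.1 for CDH2, 6.93 for COL1A1 and 0.908 for FN1. What these values mean for the label was not tested. Nothing states that the replicates came from separate cultures, so the spread between them may be technical.

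Human mitochondrial DNA is a small circle that is transcribed from both strands into long precursor RNAs. Most mRNAs and both rRNAs are flanked by tRNAs, and the cleavage of the tRNAs at both ends releases the other RNAs, which is known as tRNA punctuation. The circle encodes subunits of respiratory complexes I, III and IV and of the ATP synthase, and all other subunits come from the nucleus, so that liver and other tissues must supply these complexes from both genomes.

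Coverage is the mean number of times that a base of a row was read, and it is not scaled for library size. FPKM is scaled for length and library size, and TPM is FPKM brought to a common total. The ratio of coverage to FPKM has a highest value in each library, which was 13.3, 12.8 and 11.5 in replicates 1, 2 and 3. If coverage and FPKM count the same bases, these ratios, times 1000000000, are the numbers of bases by which the authors scaled FPKM. Coverage divided by this ratio is called scaled coverage here and has the unit of FPKM. Of the 25 chrM rows above 0, 24 had a deposited FPKM within 0.1% of their scaled coverage in every library, and TRNC was the exception.

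The annotation sets a limit on the mRNA rows. RefSeq and GENCODE v44 list 37 genes on chrM, and 25 of the 26 rows have the name and coordinates of a RefSeq gene in GRCh38. The row named ND1 is the other one. It starts where ND1 starts but runs over chrM:3307-15887, while the gene itself ends at 4262 and 15887 is the end of CYTB. Its span of 12581 bp holds all 12 protein-coding genes of the plus strand, and the 11 others have no row of their own among the 26. These 12 genes encode 6 of the 7 chrM subunits of complex I, the 1 subunit of complex III, all 3 of complex IV and both of the ATP synthase. The value is therefore called the ND1 row and not ND1, and levels of COX1, CYTB or any other of the 12 genes were not analysed here.

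The ND1 row had a coverage of 48488 in replicate 1, 46748 in replicate 2 and 43799 in replicate 3. This was the highest coverage of all 43389 rows in each library. On the scaled coverage it had 3652, 3641 and 3819, or 3704 ± 99.8 (SD, n = 3), so replicate 3 was highest and the libraries lay within a few percent of each other. In TPM it had 7734, 7615 and 7969, which ranked it in place 2 of all rows in each library, behind TRNC. In a bulk sample, more mitochondrial DNA or RNA per cell and a larger share of cells rich in mitochondria cannot be told apart.

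ND6, the subunit of complex I that is encoded on the minus strand at chrM:14149-14673, is the other mRNA row. It is known as the mitochondrial mRNA without a stable poly(A) tail. Its coverage was 18360, 19586 and 20481 in replicates 1, 2 and 3, and its scaled coverage was 1383, 1525 and 1786, or 1565 ± 204 (SD, n = 3). Replicate 3 was highest and replicate 1 lowest, while the depth had the opposite order, so the unscaled and the scaled values both put replicate 3 first. ND6 had 0.379, 0.419 and 0.468 times the coverage of the ND1 row, a mean log2 ratio of -1.25 ± 0.15 (SD, n = 3). This ratio was chosen after the values had been seen and is given without a test. The sources used here do not state a strand setting. Without strand, reads of ND6 cannot be told apart from antisense reads of the plus strand, and no base lies between ND5 and ND6.

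Both rRNAs are encoded on the plus strand in front of the ND1 row, RNR1 for the small subunit of the mitochondrial ribosome at chrM:648-1601 and RNR2 for the large subunit at chrM:1671-3229. RNR2 had a coverage of 23806, 22173 and 20226 in replicates 1, 2 and 3. RNR1 had 5267, 5233 and 4773. The lowest value of RNR2 was far above the highest of RNR1. RNR2 was 4.52, 4.24 and 4.24 times as high as RNR1 in replicates 1, 2 and 3. The log2 ratio of coverage with a pseudocount of 1 was 2.18, 2.08 and 2.08, or 2.11 ± 0.05 (SD, n = 3), with RNR2 higher in 3 of 3 libraries. An exact permutation test that flips the sign of each ratio, two-sided, gave p = 0.25, and 3 values cannot give a smaller p. On the scaled coverage RNR2 had 1761 ± 33.2 and RNR1 had 407 ± 9.75 (SD, n = 3), the SDs being 1.89% and 2.40% of the means. The ND1 row had 2.10 ± 0.0645 times the coverage of RNR2 (SD, n = 3).

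**Figure D1:**
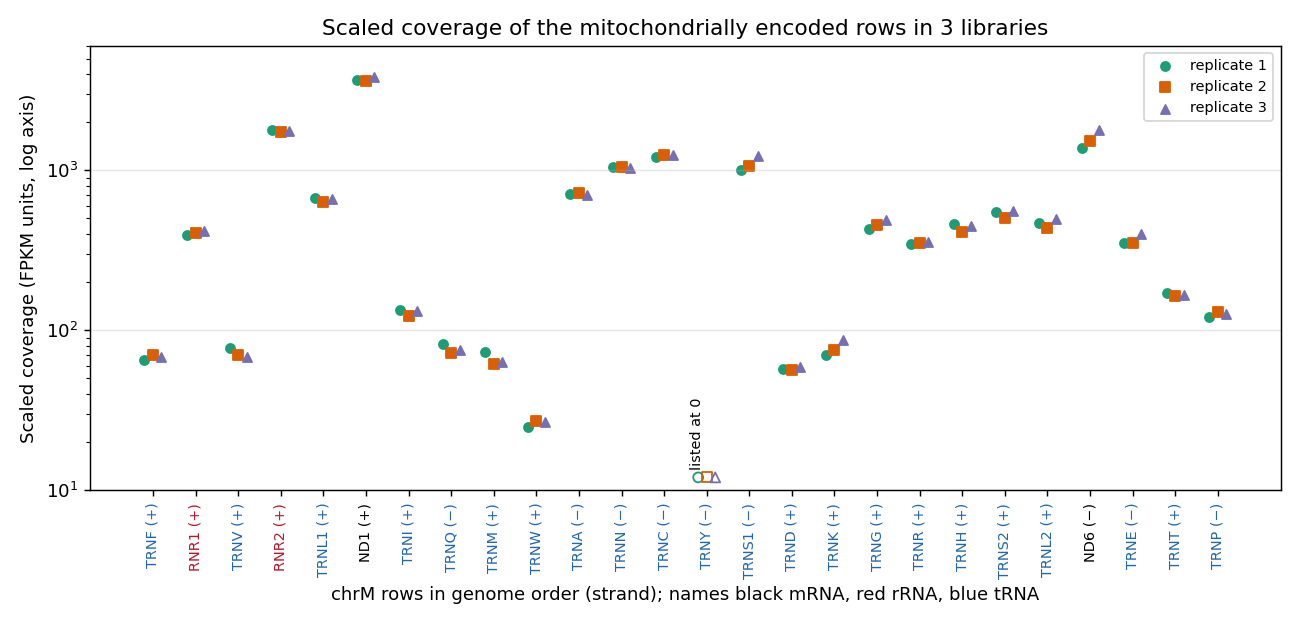
Scaled coverage (FPKM units, log axis) of the 26 chrM rows in genome order, with a point for each library. The ND1 row is highest with a mean of 3704, TRNW is the lowest row above 0 with a mean of 26.1, and open symbols mark TRNY, which was listed at 0.

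The 22 tRNA rows are 59 to 75 bp long and so shorter than the 150 bp reads. Coverage is used for them. Of these rows, 21 were above 0 in every library, and their scaled coverage ran from 26.1 for TRNW to 1232 for TRNC as means over the libraries. Coverage of TRNC was 49.0, 46.4 and 46.4 times that of TRNW in replicates 1, 2 and 3. The median scaled coverage was 259 ± 3.07 over the 22 tRNA rows, against 1084 ± 14.8 over the 2 rRNA rows and 2634 ± 149 over the 2 mRNA rows (SD of the library medians, n = 3). All classes were read in polyA RNA, and what this choice of molecule does to their order was not tested. A read over a tRNA row may come from the mature tRNA, from a precursor or from an mRNA or rRNA that runs on into it, and these sources cannot be told apart in the tables.

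The tRNA rows that the results turn on are TRNN and TRNS1, which are among the 3 highest, TRNW, which is the lowest above 0, and the neighbours that overlap, on the same strand or on opposite strands. All are read from GRCh38 on the strand that encodes the tRNA. TRNC (chrM:5761-5826) and TRNY (chrM:5826-5891) lie on the minus strand and share 1 base. TRNI (chrM:4263-4331) on the plus strand and TRNQ (chrM:4329-4400) on the minus strand share 3 bases. Capitals mark the shared bases, and the sequences without capitals, TRNN (chrM:5657-5729, minus strand), TRNS1 (chrM:7446-7514, minus strand) and TRNW (chrM:5512-5579, plus strand), share none with another tRNA row.
TRNC: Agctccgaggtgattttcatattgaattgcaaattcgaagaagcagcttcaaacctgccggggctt
TRNY: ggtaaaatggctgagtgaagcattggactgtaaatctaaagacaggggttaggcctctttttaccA
TRNI: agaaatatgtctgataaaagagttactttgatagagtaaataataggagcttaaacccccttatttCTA
TRNQ: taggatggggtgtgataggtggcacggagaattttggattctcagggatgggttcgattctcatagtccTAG
TRNN: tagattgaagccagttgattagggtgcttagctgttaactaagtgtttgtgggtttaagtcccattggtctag
TRNS1: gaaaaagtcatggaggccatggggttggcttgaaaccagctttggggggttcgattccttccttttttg
TRNW: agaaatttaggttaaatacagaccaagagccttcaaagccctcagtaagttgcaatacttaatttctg

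TRNC, the tRNA for cysteine, had a coverage of 16035, 15995 and 14234 in replicates 1, 2 and 3. TRNY, the tRNA for tyrosine that overlaps it by 1 base on the same strand, was listed at 0 in all 3 libraries. No other pair of chrM tRNA rows shares a base on the same strand. TRNN, the tRNA for asparagine and the next row on the other side of TRNC, had a coverage of 13938, 13442 and 11859. By coverage TRNC was 1.18 ± 0.0263 times as high as TRNN (SD, n = 3), so it lay near its neighbour. By deposited FPKM it was at 66.0 times its scaled coverage in each library, and 66 bp is its length. The zero of TRNY stands beside genes of the same cluster with high coverage, so it is given only as a listed 0. Whether the overlap plays a part in either value was not tested.

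TRNC therefore sets the TPM of the chrM rows. It made up 84.9%, 85.3% and 84.5% of the TPM on chrM in replicates 1, 2 and 3. All chrM rows held 19.9%, 20.2% and 20.2% of all TPM, or 20.1% ± 0.188 (SD, n = 3). With the FPKM of the chrM rows replaced by their scaled coverage, the share was 3.90%, 3.87% and 4.08%, or 3.95% ± 0.117 (SD, n = 3). TRNC then had 3067, 3137 and 3114 TPM in place of 168795, 171962 and 170927, and rows outside chrM were 1.20 times as high as deposited in each library. The share thus depends on 1 short row. Of all rows in the series that reached a mean of 10 TPM, 38.5% had a deposited FPKM above 1.5 times their scaled coverage in all 3 libraries, against 1 of the 25 chrM rows that passed this limit on TPM. TRNY, at 0, did not pass it.

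**Figure D2:**
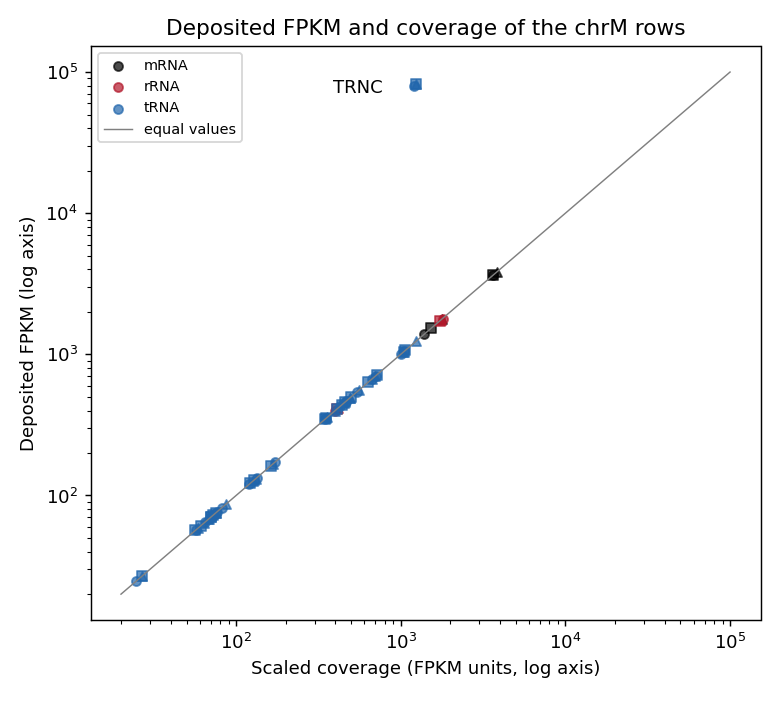
Deposited FPKM (log axis) against scaled coverage (FPKM units, log axis) of the 25 chrM rows above 0, with circles, squares and triangles for replicates 1, 2 and 3 and colours for the classes. The rows lie on the line of equal values, except TRNC, which lies 66.0 times above it.

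Coverage multiplied by row length gives the bases read. With the joined length of the 12 genes, 10816 bp, for the ND1 row, the mRNA rows held 91.5%, 91.7% and 91.9% of the bases on chrM, the rRNA rows 7.22%, 7.03% and 6.84% and the tRNA rows 1.27% in each library. With the whole span of the ND1 row in its place, the mRNA share was 92.6%, 92.8% and 92.9%. Almost all bases on the chrM rows thus came from the mRNA rows under either length. The ND1 row is 12581 bp long, against 954 bp for RNR1 and 1559 bp for RNR2, so its length raises its share. The molecule was polyA RNA, so these shares describe the libraries and not the RNA of the cells. The chrM rows together held 4.40%, 4.38% and 4.60% of the bases behind FPKM in replicates 1, 2 and 3 with the joined length, and 5.04%, 5.02% and 5.27% with the span. The tRNA rows, with 18.5% ± 0.157 of all TPM (SD, n = 3), held 0.0566% ± 0.00159 of these bases.

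The product of coverage and length was also a whole number of bases in 19 of the 21 tRNA rows above 0 in every library. The tolerance was 2 steps of a single-precision value times the row length. The exceptions were TRNI and TRNQ, the tRNAs for isoleucine and glutamine, which overlap by 3 bases on opposite strands. TRNI ended in a fraction of 0.617, 0.314 and 0.894 of a base in replicates 1, 2 and 3, and TRNQ in 0.387, 0.682 and 0.116. Their tolerance was at most 0.0177 bases. The sum of both rows was within 0.0102 bases of a whole number in every library. Which bases or reads lie behind these fractions was not tested. The other tRNA rows above 0 within the span of the ND1 row, which include rows on its own strand, ended in whole bases.

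The tRNA rows differed in level along the genome, also between neighbours. TRNF, for phenylalanine, and TRNV, for valine, flank RNR1 with no base between them and had a scaled coverage of 67.7 ± 2.75 and 71.7 ± 4.53 (SD, n = 3). TRNL1, for a leucine tRNA, follows RNR2 directly and holds the site at which MTERF1 is known to bind. It had 669, 634 and 666 in replicates 1, 2 and 3, which is 9.17 ± 0.531 times the coverage of TRNV (SD, n = 3), and RNR2 had 2.68 ± 0.0375 times the coverage of TRNL1. Of the 3 tRNAs around the rRNA genes, 1 was thus high and 2 were low in every library.

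Within the ND1 row, the plus-strand tRNAs differed by position. The 5 that lie before ATP8, for isoleucine (TRNI), methionine (TRNM), tryptophan (TRNW), aspartate (TRND) and lysine (TRNK), had a scaled coverage between 26.1 and 129. The 5 that lie after COX3, for glycine (TRNG), arginine (TRNR), histidine (TRNH), serine (TRNS2) and leucine (TRNL2), had between 352 and 534. The medians of these groups were 64.8 ± 4.35 and 463 ± 26.0 (SD of the library medians, n = 3), and the ranges did not overlap. The groups were told apart after the values had been seen, so no test is given. TRNT, the threonine tRNA that follows the ND1 row, had 172, 163 and 166 in replicates 1, 2 and 3. TRNH, TRNS2 and TRNL2 lie in a row without a gap between ND4 and ND5, at 441 ± 26.9, 534 ± 28.4 and 466 ± 28.7 (SD, n = 3). The ranges of TRNH and TRNL2 over the libraries overlapped, but TRNL2 was above TRNH within each library.

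On the minus strand, TRNA, TRNN and TRNC form a cluster between TRNW and COX1, and no base lies between COX1 and TRNS1. TRNA, for alanine, had a scaled coverage of 706, 719 and 700.1 in replicates 1, 2 and 3. TRNN had 1049.9, 1047 and 1034, and TRNC 1208, 1246 and 1241. TRNS1, for a serine tRNA, had 1008, 1067 and 1238. Together TRNA, TRNN, TRNC and TRNS1 held 48.9%, 50.6% and 49.6% of the summed coverage of the tRNA rows. TRNW and TRNA are only 7 bases apart on opposite strands, and TRNA had 27.2 ± 1.29 times the coverage of TRNW (SD, n = 3). TRNS1 and TRND are 3 bases apart on opposite strands, and TRNS1 had 19.2 ± 1.72 times the coverage of TRND (SD, n = 3). The other minus-strand rows were lower, with 367 ± 27.6 for TRNE (glutamate), 126 ± 4.66 for TRNP (proline) and 76.4 ± 4.99 for TRNQ (SD, n = 3).

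The median scaled coverage was 709 ± 9.86 over the 7 minus-strand tRNA rows above 0 and 148 ± 5.29 over the 14 plus-strand rows (SD of the library medians, n = 3), but the ranges overlap widely. The minus-strand rows ran from 76.4 to 1232 and the plus-strand rows from 26.1 to 656. As these rows are opposite to transcribed sequence of the other strand, antisense reads cannot be told apart from reads of the tRNA. Across the 21 tRNA rows above 0, Spearman's rho with mean scaled coverage was 0.30 for GC content, -0.41 for the share of A and 0.08 for length. These rows share 3 libraries and long precursors, so the values are a description only.

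Variation between the libraries was measured as the range of log2(scaled coverage + 1). None of the 25 chrM rows above 0 had a range above 1, and TRNY, at 0, could show none. In the series, 8435 rows reached a mean of 10 TPM, and 26 of them (0.308%) had a range above 1, so a count of 0 of 25 chrM rows is near what all rows show. The median coefficient of variation was 4.76% in the 25 chrM rows with at least 10 TPM and 4.28% in all such rows. The median spread of the mitochondrial rows was thus close to that of these rows. Levels were not matched between the sets. TRNW, the lowest chrM row above 0, ranked in place 2964, 2650 and 2656 of all rows by TPM in replicates 1, 2 and 3.

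Single rows differed in their spread. ND6 had the largest range at 0.37, larger than that of 98.5% of the rows with a mean of at least 10 TPM. TRNK, with 69.6, 75.4 and 86.8 in replicates 1, 2 and 3, had a range of 0.31, and TRNS1 had one of 0.30. In ND6, TRNK, TRNS1, TRNE and TRNG the scaled coverage was highest in replicate 3. TRNM, with 73.1, 61.2 and 63.6, was highest in replicate 1 and had a range of 0.25. TRNN had the smallest range of the rows above 0, at 0.02. Of the 25 rows above 0, 9 were highest in replicate 1, 5 in replicate 2 and 11 in replicate 3, so no library was highest throughout. TRNA, TRNN and TRNC, which share the minus strand with ND6, TRNS1 and TRNE, were not highest in replicate 3. Depth differs between the libraries, and its part in these deviations was not tested.

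**Figure D3:**
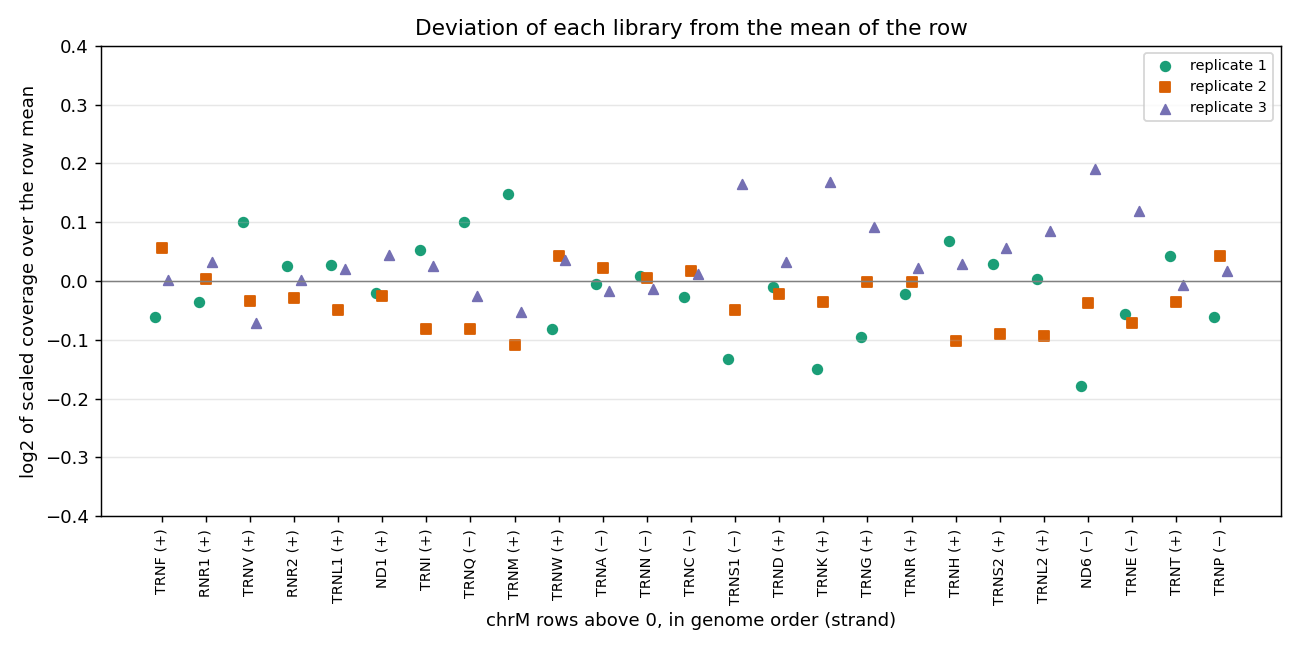
Log2 of the scaled coverage of each library over the mean of its row, for the 25 chrM rows above 0 in genome order. Replicate 3 lies highest in ND6, TRNK, TRNS1 and TRNE, while the points of TRNA, TRNN and TRNC nearly coincide.

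The mitochondrial mRNA rows were set beside 73 nuclear genes listed for subunits of the same 4 complexes. ATP5IF1, the inhibitory factor of the ATP synthase, is counted among them. All 73 had at least 10 TPM in every library, as did 8146 (18.8%) of all 43389 rows. Their median was 212 TPM, against a median of 16.3 TPM over the 13329 rows with at least 1 TPM in all 3 libraries. The highest was ATP5F1B, the beta subunit of the ATP synthase, with 1547, 1476 and 1466 TPM in replicates 1, 2 and 3. The ND1 row was 5.20 ± 0.222 times and ND6 2.20 ± 0.327 times as high in TPM as ATP5F1B (SD, n = 3). None of the 73 nuclear subunits exceeded either chrM row in mean TPM or in mean scaled coverage. Among all 43389 rows, the ND1 row was in place 2 by TPM in each library. ND6 was in place 15, 14 and 12 by TPM and 13, 12 and 9 by coverage in replicates 1, 2 and 3. Few rows of any kind thus lay above them, so the count alone does not set the subunits apart. The median log2(TPM + 1) of the 2 mRNA rows exceeded that of the nuclear subunits by 4.57 ± 0.06 (SD, n = 3). By scaled coverage the difference was 5.05, so both scales put the chrM rows far above the nuclear subunits. The scales are not independent. In the ND1 row and ND6 scaled coverage equals the deposited FPKM within 0.1%. In 38.5% of all rows with a mean of at least 10 TPM, the FPKM was over 1.5 times as high. Scaled coverage places such rows lower, as with NDUFA10 at 28.8 TPM but 1.11 by scaled coverage.

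The ranges of the nuclear partners overlapped between the complexes, and differences between their medians were not tested. The 11 nuclear subunits of complex IV, which join the products of COX1, COX2 and COX3, had a median of 508 TPM, from 96.2 for COX7B to 739.9 for COX7C. The 16 of the ATP synthase had a median of 220.0 TPM, with ATP5PF lowest at 96.5. The 9 of complex III, which join the product of CYTB, had a median of 194 TPM, from 60.8 for UQCR10 to 762 for UQCRH. The 37 of complex I, which join the products of 7 chrM genes, had a median of 169.6 TPM, from 21.3 for NDUFA9 to 921 for NDUFS6. By scaled coverage the medians were 106 for complex IV, 70.4 for the ATP synthase, 75.0 for complex III and 44.4 for complex I, so the order of complex III and the ATP synthase was the reverse of that by TPM. The lowest genes also changed, to NDUFA10 at 1.11 in complex I, where NDUFA9 had 10.2, and to COX7A2 at 40.1 in complex IV, where COX7B had 45.8. By TPM NDUFA10 had 28.8 and COX7A2 had 247, so their scaled coverage is not read as a low level.

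**Figure D4:**
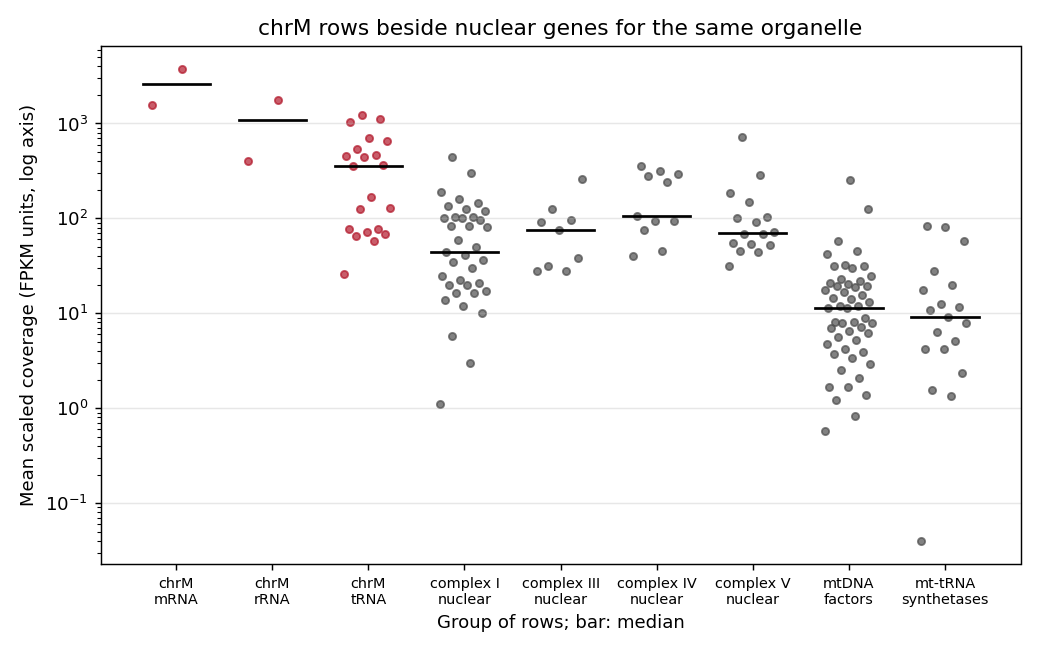
Mean scaled coverage (FPKM units, log axis) of the chrM rows above 0 by class and of nuclear genes for respiratory complexes, factors of mitochondrial DNA and its RNA, and mitochondrial tRNA synthetases, with a point for each gene and a bar at the median. Both mRNA rows lie above every nuclear gene shown, the highest of which is ATP5F1B at 713. For some nuclear genes scaled coverage lies below the deposited FPKM, so their points lie low.

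Of 52 listed nuclear genes for the replication, transcription and RNA processing of mitochondrial DNA, all had at least 1 TPM and 41 had at least 10 TPM in every library, with a median of 28.9 TPM. Over all 43389 rows, 30.7% had at least 1 TPM and 18.8% at least 10 TPM in every library. Transcription needs the polymerase POLRMT, the DNA-packaging factor TFAM, the initiation factor TFB2M and the elongation factor TEFM. POLRMT had 57.9, 59.0 and 56.0 TPM in replicates 1, 2 and 3, and TFAM had 48.0, 45.8 and 45.7. TFB2M had 37.8 ± 1.68 and TEFM 16.3 ± 1.12 TPM (SD, n = 3). Of the 4 MTERF genes on the list, MTERF1, which binds within TRNL1, was at 3.67 ± 0.144 and MTERF4, which acts on the ribosome, at 7.62 ± 0.437 TPM, with MTERF2 at 8.57 ± 0.132 and MTERF3 at 19.2 ± 0.866 TPM (SD, n = 3). MTERF3 was thus above TEFM in each library, and the other MTERF genes were below it. By scaled coverage MTERF4, at 0.835, was below MTERF1, at 1.65, and MTERF2, at 1.67, so the order of these genes depends on the scale.

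The ends of the tRNAs are cut by RNase P at the 5′ side and by ELAC2 at the 3′ side. The subunits of mitochondrial RNase P were unequal in level, with 509, 552 and 541 TPM for HSD17B10 in replicates 1, 2 and 3, 31.5, 30.3 and 30.3 TPM for TRMT10C and 21.5, 20.7 and 19.7 TPM for PRORP. HSD17B10 is also an enzyme of isoleucine breakdown, and it was the highest gene of the list. ELAC2 had 70.9 ± 3.06 TPM (SD, n = 3). The lowest of the tRNA genes were NSUN3 and TRMT5, which modify mitochondrial tRNAs, with 4.05 ± 0.199 and 4.89 ± 0.243 TPM (SD, n = 3). All genes of tRNA cleavage were thus expressed, within a wide range of TPM.

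Among the genes that stabilise or extend mitochondrial mRNAs, SLIRP had 307, 372 and 347 TPM in replicates 1, 2 and 3, and its partner LRPPRC had 79.9, 72.8 and 71.8. Replicate 1 was the lowest for SLIRP and the highest for LRPPRC. TBRG4, also called FASTKD4, had 91.4 ± 1.90 TPM, FASTKD5 16.8 ± 0.941 and the poly(A) polymerase MTPAP 12.9 ± 0.493 (SD, n = 3). RNA decay is carried out by PNPT1 and SUPV3L1, with 42.5 ± 1.28 and 49.4 ± 3.41 TPM, and by REXO2, with 95.9 ± 4.06 TPM (SD, n = 3). Of the replication genes, the single-strand binding protein SSBP1 was highest at 331 ± 10.4 TPM and the primase PRIMPOL lowest at 3.20 ± 0.0594 TPM (SD, n = 3). Levels of these nuclear genes are given for the libraries only, since 1 condition allows no relation between them and the chrM rows to be tested.

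Copies of mitochondrial DNA in nuclear chromosomes could take reads from the chrM rows. The tables hold 11 rows of the MTRNR2L genes, which resemble RNR2. All 11 were below 1 TPM in every library, and 6 of them were at 0 throughout. Of all 43389 rows, 67.2% were below 1 TPM and 46.1% were at 0 in every library, so these counts alone do not set the copies apart. MTRNR2L2 had 0.378, 0.337 and 0.140 TPM in replicates 1, 2 and 3, and MTRNR2L3 had 0.395, 0.0882 and 0.157 TPM, the first of which is the highest value of the 11 in any library. RNR2 had 3797, 3612 and 3680 TPM in the same libraries. Reads of RNR2 and of these copies cannot be told apart where their sequences are the same.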

How the data were processed

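RNA was sequenced as 150 bp paired-end reads in 3 libraries labelled HepG2. The submitters' processing notes name FastQC 0.11.8, Trim Galore 0.6.2, STAR 2.6.1a, StringTie and GRCh38. The annotation and the strand setting are not given in the sources used here. In the deposited tables coverage is a signal, the mean depth of a row without scaling. The FPKM and TPM deposited by the authors are scaled for length and library size.

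Rows were joined by name, strand and coordinates. The tables hold no counts, so no counting error is given. The members and lists were chosen with earlier results of these data known. Of 5 ratios planned with the exact sign-flip test, 4 could not be computed because they need genes without a separate row on chrM. No adjustment over ratios was therefore made. All mRNA and rRNA rows were named, with the tRNA rows of highest, lowest, least and most variable coverage. The nuclear genes named were those of highest and lowest TPM and known core factors. Other tRNA rows were named after their values were seen. Older symbols were matched through RefSeq synonyms. The range calculation was tested on simulated data. Python 3.11.15, numpy 2.4.6, pandas 2.3.3, scipy 1.17.1 and matplotlib 3.10.9 were used.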

Additional observations from a re-analysis of the deposited data

How the results depend on the processing

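No paired analysis was possible because there is only 1 condition. The share of all TPM on chrM, 20.1%, changed to 1.92% without the tRNA rows, to 3.95% with the FPKM of chrM rows taken from coverage, to 5.27% of summed coverage and to 4.46% of the bases behind FPKM, the last chosen after seeing the data. All 4 settings remove or bypass the TPM of TRNC. The median scaled coverage of the tRNA rows, 259.2, changed to 374 as a mean over rows and to 351 without TRNY, also chosen after seeing the data, which leaves out a 0. The median log2 difference between the chrM mRNA rows and the nuclear subunits, 4.57, changed to 5.05 by scaled coverage. The other 39 of 46 alternatives moved their values by less than 1 SD, kept the direction of the ratio of RNR2 to RNR1 or left the count of rows with a range above 1 at 0. Several of the 39 could not change their result. A mean over 2 mRNA or 2 rRNA rows equals their median. All 73 nuclear subunits had at least 10 TPM, so that limit removed none. In RNR1, RNR2, ND6 and the ND1 row FPKM equals scaled coverage within 0.1%. TPM could thus change their ratios only through the pseudocount. Leaving out a replicate cannot widen a range, so that count had to stay at 0. The log2 ratio of RNR2 to RNR1 was between 2.08 and 2.13 when a replicate was left out, and that of ND6 to the ND1 row, chosen after seeing the data, was between -1.33 and -1.18. A mean over 2 of the 3 libraries stays within 1 SD by construction, and the test cannot give a p below 0.25, so these ranges show no stability. The planned ratios of ND6 to ND5, ATP6 to ATP8, ND4 to ND4L and COX1 to ND1 have no value under any setting. The tables give no reads, so the lowest level that TRNY could show is not known.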

Other observations

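The enzymes that charge the mitochondrial tRNAs are encoded in the nucleus. All 19 listed synthetases had at least 1 TPM in every library and 16 had at least 10 TPM, against 30.7% and 18.8% of all rows. Their median was 32.0 TPM. KARS1, with 196, 186 and 187 TPM in replicates 1, 2 and 3, and GARS1, with 139, 129 and 127 TPM, also serve the cytosol. IARS2 was the highest of those that serve mitochondria alone, with 174 ± 4.73 TPM, and PARS2 the lowest with 3.25 ± 0.0952 TPM (SD, n = 3). By scaled coverage FARS2, at 0.0400, and YARS2 were below PARS2, at 1.55. FARS2 had 9.94 TPM, so its scaled coverage is not read as absence. For the tRNA rows of highest and lowest coverage above 0, CARS2, which charges the cysteine tRNA, had 114.5 ± 6.01 TPM, and WARS2, which charges the tryptophan tRNA, had 18.6 ± 0.461 TPM (SD, n = 3). YARS2, which charges the tyrosine tRNA of the row listed at 0, had 27.6 ± 1.70 TPM (SD, n = 3). By scaled coverage CARS2 had 17.6, WARS2 7.93 and YARS2 1.36, so YARS2 was above WARS2 by TPM and below it by scaled coverage. No relation between synthetases and tRNA rows was tested.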
